A study of Mus musculus with 6 samples.

Results

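The HIF pathway, through which cells sense oxygen, was examined as 10 genes in mouse ILC2s (group 2 innate lymphoid cells, tissue-resident lymphocytes that make type 2 cytokines). The members are Hif1a, Vhl, Egln1, Egln3, Vegfa, Bnip3, Bnip3l, P4ha1, Ddit4 and Ankrd37, taken by symbol as HIF1A, its control genes and hypoxia targets outside glycolysis. All 10 were found among the 25865 genes of the RNA sequencing table, and all 10 passed the filter on low values, which asked for a 6-sample mean of 1 or more. Sorted large-intestinal cells of C57BL/6 mice were cultured for 5 days in 4 cytokines, namely IL-33, IL-25, IL-7 and IL-2 (10 ng/mL of each). The Control group (n = 3) received vehicle, and the other group (n = 3) received toyocamycin for 16 h. Toyocamycin is a nucleoside analogue of adenosine that blocks ribosomal RNA processing and the RNase of the stress sensor IRE1. Both groups thus share the strain and the cytokine culture. The sources used here do not give the age and number of the mice, the dose or the oxygen level of the cultures. No label says whether replicates came from separate cultures, so the p-values rest on a spread among samples that may be technical alone.

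HIF1A is the oxygen-regulated alpha subunit of a transcription factor that works as a dimer with ARNT. When oxygen is present, prolyl hydroxylases of the EGLN family mark the alpha subunit, the VHL protein recognises the mark, and a ubiquitin ligase built on VHL sends the subunit to the proteasome. The pathway is therefore set largely at the protein level, which transcript counts do not show. In low oxygen the dimer binds hypoxia response elements and raises genes of glucose use, blood vessel growth, mitophagy and matrix modification, and also EGLN genes that feed back on it. In ILC2s, glycolysis and HIF1A have been studied as determinants of effector function.

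The core of a hypoxia response element was taken as ACGTG or GCGTG on either strand, and its matches upstream of the members show which letters their windows hold. RefSeq promoter windows of build GRCm38.p6 matched 9 of the 10 members, all except Bnip3l. Within the 250 bases before the start, 8 of these 9 genes had at least 1 core, beside 58.2% of the 12183 tested genes with a window and 38.6% of all 32851 windows. Vhl had none, and Vegfa had none in its first window and 2 in its second. Vegfa thus counts among the 8 only through its second window. That window lies inside the gene, with 218 of its 250 bases in GENCODE exons of Vegfa, so its letters are largely those of the transcript. The windows of Hif1a and Ankrd37 also lie inside the GENCODE span of their genes, with 0 and 17 bases in exons. The members' windows had a GC content of 50.8% to 86%, where the median of all windows was 52.4%, and the part of GC content in the number of cores was not tested. Windows of 5 members are printed 5′ to 3′ on the gene's strand, with the cores in capitals (CACGC and CACGT are the same cores on the other strand, and overlapping matches are joined). They belong to 4 members that rose with toyocamycin and to Bnip3, which did not pass the test.
Hif1a, chr12:73907617-73907866, plus strand: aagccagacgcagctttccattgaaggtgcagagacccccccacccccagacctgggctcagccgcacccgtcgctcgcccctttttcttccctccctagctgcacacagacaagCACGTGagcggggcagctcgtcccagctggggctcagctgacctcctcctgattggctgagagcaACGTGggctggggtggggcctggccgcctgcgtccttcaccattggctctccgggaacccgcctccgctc
Egln3, chr12:54203875-54204124, minus strand: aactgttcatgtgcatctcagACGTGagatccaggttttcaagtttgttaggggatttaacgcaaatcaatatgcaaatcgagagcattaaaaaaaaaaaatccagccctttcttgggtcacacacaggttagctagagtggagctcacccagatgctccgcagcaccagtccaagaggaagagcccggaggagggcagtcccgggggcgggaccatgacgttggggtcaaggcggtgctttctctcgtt
P4ha1, chr10:59323046-59323295, plus strand: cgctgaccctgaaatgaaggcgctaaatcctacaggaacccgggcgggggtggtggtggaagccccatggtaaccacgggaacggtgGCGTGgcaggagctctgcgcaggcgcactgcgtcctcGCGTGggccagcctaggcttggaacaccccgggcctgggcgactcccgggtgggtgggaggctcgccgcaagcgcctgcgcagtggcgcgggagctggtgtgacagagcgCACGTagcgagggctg
Ankrd37, chr8:45999851-46000100, minus strand: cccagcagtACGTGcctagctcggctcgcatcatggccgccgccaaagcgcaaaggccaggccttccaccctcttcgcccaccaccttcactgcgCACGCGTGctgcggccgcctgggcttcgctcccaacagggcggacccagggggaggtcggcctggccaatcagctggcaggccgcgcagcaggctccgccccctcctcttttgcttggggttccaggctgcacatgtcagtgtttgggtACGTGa
Bnip3, chr7:138909507-138909756, minus strand: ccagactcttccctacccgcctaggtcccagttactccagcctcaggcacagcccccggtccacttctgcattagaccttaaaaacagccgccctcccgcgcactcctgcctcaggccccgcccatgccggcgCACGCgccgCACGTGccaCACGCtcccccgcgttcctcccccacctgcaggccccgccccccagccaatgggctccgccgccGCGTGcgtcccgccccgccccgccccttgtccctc

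Bnip3 had the most cores of these windows, 4, of which the second is the palindrome CACGTG, from 108 to 103 bases before the start. Hif1a had 2 cores, Egln3 had 1 and P4ha1 had 3. Ankrd37 had 3, and the last of them ended 2 bases before the start. Bnip3l, the member with the highest log2 change, had no window, so its number of cores is unknown. Whether the number of cores goes with the change in transcript level was not tested. A match describes the letters of the window and shows no binding.

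**Figure D1:**
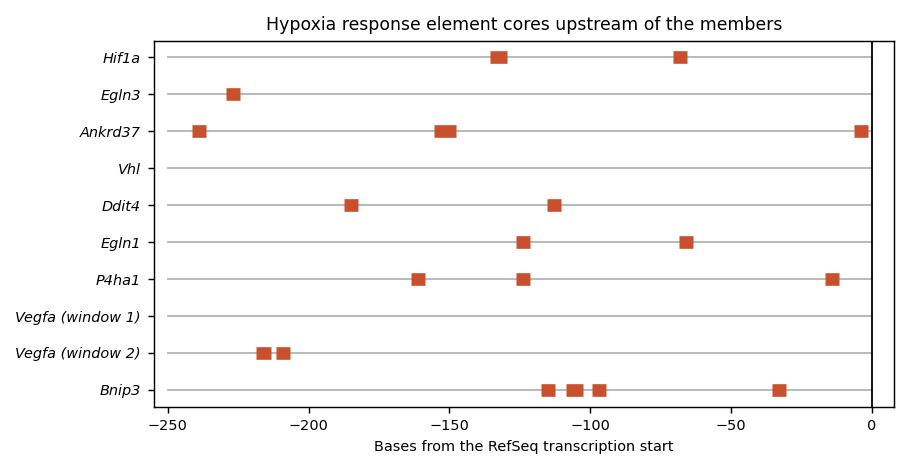
Positions of hypoxia response element cores (filled blocks) in the 250 bases before the RefSeq start of 9 members, with the distance from the start in bases on the x axis and 1 row per window, ordered by log2 change from the highest at the top. Bnip3, at the bottom, has 4 cores, while Vhl and the first Vegfa window have none.

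Each library held 22.3 M to 36.7 M reads assigned to genes. Values are normalised read counts (reads of a gene over the size factor of its sample), with means ± SD over n = 3. Adjusted p-values come from limma across all genes tested. All 15 ILC2 markers were above the floor of 3 reads per library, with a summed level of 569860 to 583658 in Control and 464578 to 503242 with toyocamycin. Single ILC2 markers moved in both directions: 5 were higher and 9 lower, beside 32.8% higher and 33.1% lower among all genes. Rora (13.1-fold) and Gata3 (2.02-fold) were among the higher ones, and Il13 (6.95-fold) and Arg1 (5.1-fold) among the lower ones. The 11 T cell markers summed to 2184 to 2730 and 1445 to 1718 in the same groups, of which Lat alone made up 1862 to 2360 and 1031 to 1230. Lat, Cd3e and Cd3d were lower with toyocamycin, while Trac (2.04-fold), Trbc2 (1.51-fold) and Cd3g (1.34-fold) were higher. Cd3d had only 0 to 12 reads per library, and its toyocamycin mean of 0.88 was below that group's floor of 3.38. Cd8a and Cd8b1 were below the floor in both groups, and Cd5 was below it in Control. The 7 epithelial markers summed to 192.2 to 248.3 and 196.8 to 217.3 (Krt20 at 0), and the 8 fibroblast and endothelial markers to 1384 to 1614 and 775 to 1062. Those of macrophages and dendritic cells (7) summed to 885.5 to 1292 and 1083 to 1557, and those of B cells (5) to 361.5 to 464.3 and 182 to 213. Of the B cell sum, Cd79b alone made up 334 to 441 and 166 to 198. Pecam1 made up 979 to 1056 and 519 to 596 of the fibroblast and endothelial sum, and both genes were lower. Those of ILC3s (5) summed to 189 to 209 and 170 to 199, with opposite changes inside the sum. Il22 fell 2.64-fold from 105 ± 10.2 to 39.8 ± 10.4, and Il17a rose 1.8-fold from 79.5 ± 4.55 to 143 ± 12.3. Among mast cell markers Kit stood out (29276 to 30741 and 43106 to 46744) with Fcer1a at 0, and among those of NK cells and ILC1s Gzma did (7032 to 7494 and 9494 to 10860) with Ifng and Klra8 at 0. Gzma was called higher, while Prf1, another marker of NK cells and ILC1s, fell 5.25-fold from 194 ± 35.5 to 36.9 ± 6.29. The part of other cells in the results was not tested. In such bulk samples, fewer cells of a type and less RNA per cell cannot be told apart.

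With the deposited scaling, toyocamycin-treated ILC2s had higher normalised read counts of 9 of the 10 members than Control cells. Bnip3l rose 5-fold, Hif1a 4.31-fold and Egln3 3.38-fold, while P4ha1 and Vegfa rose by 1.54-fold and 1.43-fold. No member fell, and Bnip3 did not pass the test. The treatment changed much of the transcriptome: of 16223 genes tested, 65.9% were called at an adjusted p under 0.05, 32.8% of them as higher and 33.1% as lower (percentages of all genes tested). A log2 change of at least 1 was reached by 6 members and by 17% of all genes. The groups did not overlap, with toyocamycin higher, in 9 members and in 34.2% of all genes, while 34.9% of all genes did not overlap in the other direction and 69.1% in either. The median log2 change of the members was 1.34, beside −0.03 for all genes.

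Directions depend on the scaling of the samples, since the normalised totals were 23.1 M to 23.7 M in Control and 29.1 M to 31.1 M with toyocamycin. With samples set to equal totals, the median over all genes became −0.36 on the log2 scale, with 4040 genes higher and 6897 lower in place of 5316 and 5374, and 8 members were higher and 1, Bnip3, was lower. The median of the members was then 1.00.

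**Figure D2:**
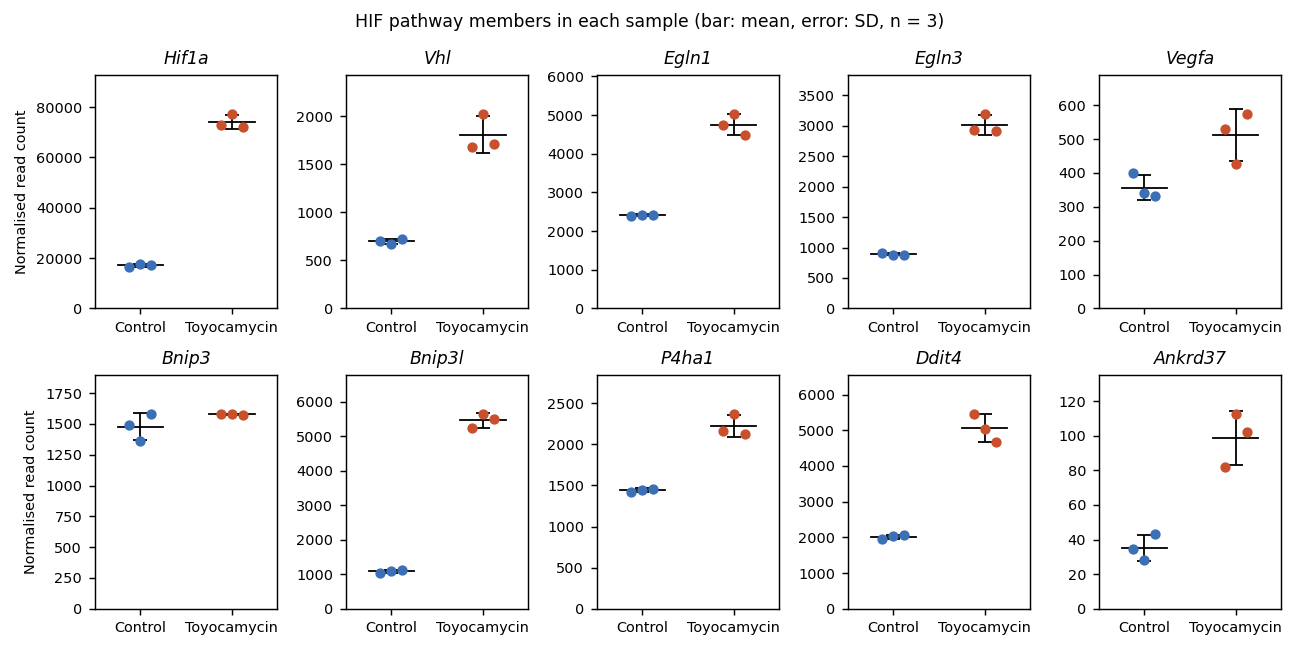
Normalised read count (y axis, linear and starting at 0, a separate scale for each gene) of the 10 members in the 3 Control and 3 toyocamycin samples, with each point a sample, the bar the mean and the error the SD. All toyocamycin samples lie above all Control samples in every panel except that of Bnip3.

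Hif1a (chromosome 12, 73901375 to 73947530, GRCm38, plus strand) had 16599, 17677 and 17391 normalised reads in the Control samples and 73046, 77447 and 72043 with toyocamycin. Every treated sample was thus more than 4 times as high as the group's Control mean of 17223 ± 558, and the treated mean was 74179 ± 2874. The log2 change was 2.11 (SE 0.05, adjusted p = 2.68e-18), and 3.94% of all genes tested had a higher one. The gene took 0.0734% ± 0.0014 of all assigned reads in Control and 0.248% ± 0.0005 with toyocamycin. An antisense gene, Gm15283, shares 330 exon bases with Hif1a in GENCODE M21, and since the counting is not stated to use strand, reads from the 2 cannot be told apart there. Gm49321, on the same strand, shares 148 exon bases.

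The other alpha subunits did not follow Hif1a. Epas1, which encodes HIF2A, had 935 ± 60.7 normalised reads in Control and 815 ± 46.2 with toyocamycin. Its log2 change was −0.20 (adjusted p = 0.0353), a call that ended with quantile normalization (−0.14), with DESeq2 (−0.20), after correction for GC content and length (−0.02), and when any of 4 libraries was left out: toyocamycin replicate 2 (−0.18), toyocamycin replicate 1 (−0.17), Control replicate 2 (−0.17) or Control replicate 1 (−0.17). Hif3a, whose products include inhibitory forms, fell 3.38-fold from 153 ± 19.6 to 45.2 ± 8.94. Per kilobase of exon, Hif1a made up 93.9% ± 0.5 of the 3 alpha subunit transcripts in Control and 98.8% ± 0.1 with toyocamycin, and Epas1 5.38% ± 0.4 and 1.15% ± 0.1. Arnt, the shared beta subunit, had 2156 ± 48.6 reads in Control and rose 2.54-fold, to 5472 ± 340 (adjusted p = 9.23e-15, log2 change 1.34). Per kilobase of exon, the Arnt level was 269 ± 6.1 in Control and 683 ± 42.5 with toyocamycin, against 2921 ± 94.7 and 12581 ± 488 for Hif1a.

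Among the members that act against HIF1A, Vhl, Egln1 and Egln3 each rose. Vhl (chromosome 6, 113623959 to 113631633, plus strand) encodes the substrate receptor of the ligase and had 700, 671 and 722 normalised reads in Control and 1684, 2029 and 1711 with toyocamycin. The lowest treated sample was thus more than 2 times as high as the highest Control sample. The change was 2.59-fold (log2 change 1.37, SE 0.08, adjusted p = 1.53e-12). Among its partners in the ligase, the scaffold Cul2 rose 3.07-fold from 1415 ± 40.2 to 4346 ± 219, and the adaptor Elob rose 1.54-fold from 839 ± 56.9 to 1289 ± 128. The RING subunit Rbx1 was 1.25-fold higher (653 ± 78.3 and 816 ± 37.9, log2 change 0.33, adjusted p = 0.00402), but its log2 change was −0.02 and did not pass with equal totals. The adaptor Eloc did not pass (598 ± 41.2 and 565 ± 14.9, log2 change −0.08), became lower with equal totals (−0.43) and after correction for GC content and length (−0.38), and was at 0.12 with quantile normalization.

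Egln1 (chromosome 8, 124908587 to 124949324, minus strand) encodes PHD2, the main hydroxylase of HIF1A in normal oxygen. It had 2398, 2427 and 2422 normalised reads in Control and 4742, 5042 and 4486 with toyocamycin. The Control samples were almost level, and all treated samples were higher. The change was 1.97-fold (log2 change 0.98, SE 0.06, adjusted p = 1.45e-12), with a log2 change of 0.53 under quantile normalization and 0.63 with equal totals. Over all alternatives that kept every sample, the log2 change of Egln1 ran from 0.53 to 1.37.

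Egln3 (chromosome 12, 54178981 to 54203860, minus strand) encodes PHD3, a hydroxylase that is itself a strongly induced hypoxia target. It had 904, 882 and 883 normalised reads in Control and 2921, 3198 and 2914 with toyocamycin. The groups lay far apart, with a 3.38-fold change (log2 change 1.76, SE 0.06, adjusted p = 7.02e-16). Egln2, the third paralog, was 1.22-fold lower (1800 ± 82.4 and 1470 ± 68.7, log2 change −0.29, adjusted p = 0.00047), but its log2 change was 0.05 and did not pass after correction for GC content and length. The gene for the asparaginyl hydroxylase FIH, Hif1an, rose 1.46-fold from 1140 ± 97.1 to 1670 ± 5.

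The balance among the EGLN paralogs shifted. Per kilobase of exon, Egln3 was 20.3% ± 0.6 of the 3 transcripts in Control and 38% ± 0.5 with toyocamycin, while Egln2 was 39% ± 1.1 and 17.6% ± 0.1 and Egln1 40.8% ± 0.5 and 44.4% ± 0.6. The ratio of Egln3 to Egln1 reads was 0.377, 0.363 and 0.364 in Control and 0.616, 0.634 and 0.65 with toyocamycin. This ratio does not depend on a scaling factor per sample, but it was not corrected for GC content or length. The groups did not overlap, and the mean log2 ratio was higher by 0.78 with toyocamycin (2-sided exact permutation test, p = 0.1, the smallest that 3 against 3 samples allow). This was 1 of 3 ratios compared, and the adjusted p was also 0.1 for each.

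Of the other 19 genes of HIF subunits, hydroxylases and the VHL complex, 13 were higher, 4 lower and 2 did not pass, beside 32.8% higher and 33.1% lower among all genes. Their median log2 change was 0.44, or 0.09 with equal totals, where 9 were higher and 7 lower.

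The mitophagy receptors Bnip3 and Bnip3l, related proteins of the outer mitochondrial membrane that recruit autophagosomes, had unlike changes. Bnip3l (chromosome 14, 66985239 to 67008877, minus strand) had 1047, 1101 and 1125 normalised reads in Control and 5224, 5650 and 5498 with toyocamycin. This was the highest log2 change of the 10 members (2.32, SE 0.06, adjusted p = 3.65e-18), and 2.81% of all genes tested had a higher one. A near-identical copy, Bnip3l-ps, matched 663 bases of the Bnip3l transcript at 99.2% identity and also rose, 3.5-fold from 468 ± 21.8 to 1637 ± 96.1. How the authors divided reads between the 2 was not stated, so the size of the change in Bnip3l is uncertain.

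Bnip3 (chromosome 7, 138890836 to 138909519, minus strand) had 1487, 1365 and 1582 normalised reads in Control and 1581, 1579 and 1574 with toyocamycin. The treated samples lay within the range of the Control samples. The log2 change was 0.10 (SE 0.07, adjusted p = 0.218), with values of −0.25 with equal totals (adjusted p = 0.00254, lower), −0.08 with quantile normalization and −0.02 after correction for GC content and length. Bnip3 also has near-identical copies: 5 other transcripts, among them the pseudogenes Gm16439 and Gm6532, match 544 to 858 of its 1756 bases at 93.4% to 98.9% identity, and the antisense gene Gm45507 overlaps 504 of its exon bases. Its count is therefore uncertain. The ratio of Bnip3 to Bnip3l reads was 1.42, 1.24 and 1.41 in Control and 0.303, 0.279 and 0.286 with toyocamycin, so that Bnip3 had more reads than Bnip3l in each Control sample and fewer in each treated one. The log2 ratio differed by −2.22 (exact permutation test, 2-sided, p = 0.1).

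**Figure D3:**
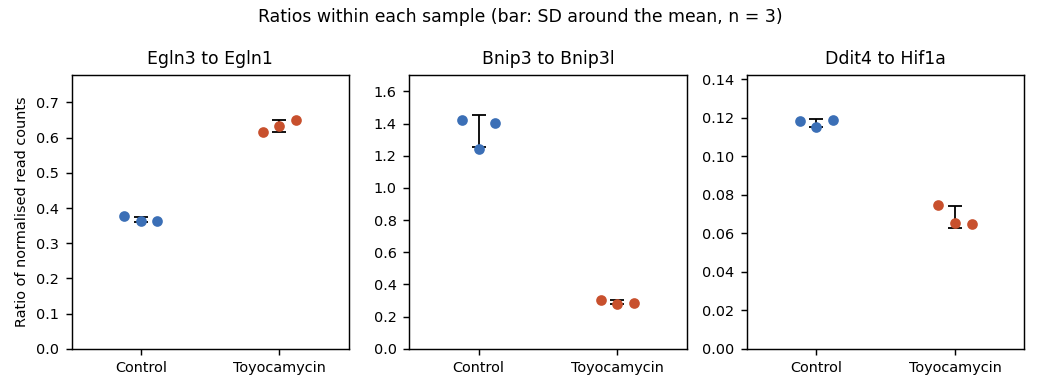
Ratio of normalised read counts of 2 members within each sample (y axis, starting at 0) for Egln3 to Egln1, Bnip3 to Bnip3l and Ddit4 to Hif1a, with each point a sample and the error bar the SD around the mean (n = 3). Egln3 to Egln1 goes from about 0.37 in Control to above 0.6 with toyocamycin, and Bnip3 to Bnip3l falls from above 1.2 to about 0.3.

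Of 9 other mitophagy receptors and adaptors tested, 5 were higher and 2 lower, beside 32.8% higher and 33.1% lower among all genes. With equal totals 3 were higher and 4 lower, and 4 were lower with quantile normalization. Their median log2 change was 0.42, or 0.07 with equal totals. The ubiquitin-binding cargo adaptor genes Tax1bp1 and Sqstm1 rose 2.48-fold (from 9328 ± 371) and 2.1-fold (from 7387 ± 109). Phb2, which encodes an inner membrane receptor, rose 1.95-fold from 3314 ± 287. In the other direction Fkbp8, a receptor of the outer membrane, fell 6.02-fold from 10237 ± 156 to 1701 ± 188, and the adaptor gene Optn fell 2.86-fold from 712 ± 34.8.

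Ddit4 (chromosome 10, 59949669 to 59951834, minus strand) encodes REDD1, a stress-induced inhibitor of mTORC1. It had 1960, 2036 and 2064 normalised reads in Control and 5461, 5048 and 4680 with toyocamycin. All treated samples were more than 2 times as high as any Control sample, and the change was 2.51-fold (log2 change 1.32, SE 0.06, adjusted p = 3.11e-14). Ddit4 rose less than Hif1a: the ratio of Ddit4 to Hif1a reads was 0.118, 0.115 and 0.119 in Control and 0.0748, 0.0652 and 0.065 with toyocamycin, a difference of −0.78 in the log2 ratio (exact permutation test, 2-sided, p = 0.1). The size of this gap depends on the processing. Over the alternatives that kept all samples, the log2 change was 0.91 to 1.64 for Ddit4 and 1.75 to 2.11 for Hif1a.

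Ankrd37 (chromosome 8, 45996902 to 46005707, minus strand), an ankyrin repeat gene known as a hypoxia target, was the member with the fewest reads. It had 34.4, 28.1 and 43 normalised reads in Control and 81.9, 113 and 102 with toyocamycin. The groups did not overlap, though only 32 to 133 reads per library lie behind these values and the Control samples varied by 21.3% (SD over mean). The change was 2.81-fold (log2 change 1.47, SE 0.29, adjusted p = 0.000109). Its exons overlap those of Ufsp2 (57 bases) and Lrp2bp (349 bases) on the opposite strand, so its reads cannot be fully told apart from theirs. Ufsp2 moved the other way, from 824 ± 20.2 to 300 ± 44.6, and Lrp2bp had 6.74 ± 5.13 and 5.53 ± 3.75.

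Vegfa (chromosome 17, 46016993 to 46032369, minus strand) encodes the growth factor that drives blood vessel formation. It had 400, 341 and 331 normalised reads in Control and 531, 426 and 576 with toyocamycin. The lowest treated sample, toyocamycin replicate 2, was only just above the highest Control sample. The change was 1.43-fold (log2 change 0.51, SE 0.12, adjusted p = 0.00087). The call ended with equal totals (log2 change 0.16, adjusted p = 0.309), and the log2 change was 0.83 with quantile normalization and 0.85 after correction for GC content and length.

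Of 13 other VEGF and angiopoietin ligands and receptors, 1 was higher, 2 were lower and 10 did not pass (median log2 change 0.09, or −0.25 with equal totals). Among all genes, 32.8% were higher and 33.1% lower. Vegfc, a ligand that drives lymphatic vessel growth, rose 1.5-fold from 2061 ± 100 to 3100 ± 140. Vegfb fell 3.4-fold from 568 ± 44 to 167 ± 30.5, and the co-receptor gene Nrp2 fell 3.61-fold from 411 ± 23.7 to 114 ± 24.5. Without toyocamycin replicate 2, or with quantile normalization, 2 of the 13 were higher. Per kilobase of exon, Vegfa was at 83.3 ± 8.7 in Control and 119 ± 17.9 with toyocamycin.

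P4ha1 (chromosome 10, 59323296 to 59373304, plus strand) encodes the catalytic subunit of collagen prolyl 4-hydroxylase. It had 1424, 1450 and 1460 normalised reads in Control and 2168, 2371 and 2126 with toyocamycin. The groups did not overlap, and the change was 1.54-fold (log2 change 0.62, SE 0.06, adjusted p = 1.64e-08), with a log2 change of 0.27 with equal totals (adjusted p = 0.000143) and 0.38 with quantile normalization.

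Of the 9 other collagen hydroxylase genes, 7 were lower and 2 higher (median log2 change −0.61), beside 33.1% lower and 32.8% higher among all genes. With quantile normalization 4 of the 9 were lower, and after correction for GC content and length 3 were. The latter is near the 33.1% of all genes with the deposited scaling. With equal totals 7 were lower and 2 higher, with a median log2 change of −0.95. The lysyl hydroxylase gene Plod2 rose 2.23-fold from 3806 ± 135 to 8481 ± 500. P3h2 had 0, 0 and 3.51 normalised reads in Control, a mean below the floor of 2.66, and 12.6 ± 2 with toyocamycin (adjusted p = 0.00106), and it was not tested with edgeR or with a mean of at least 10. The paralog P4ha3 fell 3.42-fold from 96.1 ± 0.44 to 28.1 ± 8.55. P3h1 fell 1.69-fold from 207 ± 12.3, a call that ended with quantile normalization (adjusted p = 0.27) and after correction for GC content and length (adjusted p = 0.0693). P3h3, with 19.6 ± 5.24 and 6.83 ± 3.23 normalised reads, was lower (adjusted p = 0.0224), and its call ended after correction for GC content and length (adjusted p = 0.0928), with DESeq2 (adjusted p = 0.0547), and without Control replicate 1 (adjusted p = 0.0889), Control replicate 2 (adjusted p = 0.0687) or toyocamycin replicate 2 (adjusted p = 0.055).

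**Figure D4:**
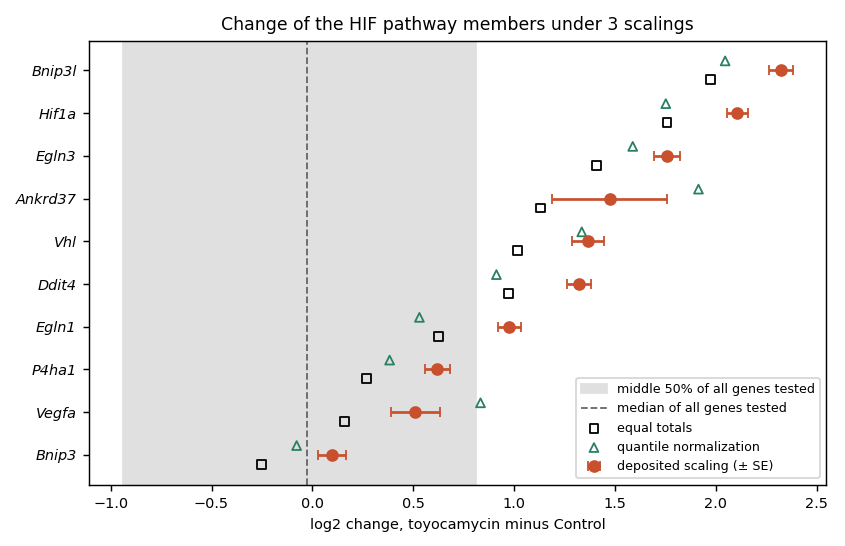
Log2 change (toyocamycin minus Control, x axis) of the 10 members with the deposited scaling (filled points with SE), with equal totals (squares) and with quantile normalization (triangles); the grey band and dashed line show the middle 50% and the median of all genes with the deposited scaling. Bnip3l and Hif1a lie at 2.32 and 2.11, and Bnip3 changes sign between scalings.

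Compared per kilobase of exon, the order of the members was partly different in the groups. In Control, Hif1a was highest at 2921 ± 94.7 normalised reads per kilobase, followed by Ddit4 (1151 ± 30.8), then Egln1 (672 ± 4.2) and Bnip3 (652 ± 48), which overlapped. P4ha1 (351 ± 4.5), Egln3 (334 ± 4.7), Bnip3l (283 ± 10.5) and Vhl (233 ± 8.5) came next, with Vegfa and Ankrd37 (22.9 ± 4.9) last. With toyocamycin Bnip3l held rank 3 (1414 ± 55.9), overlapping with Egln1 (1324 ± 77.3), and Egln3 was at 1131 ± 60.8. Bnip3 (697 ± 1.6) held rank 6, and Vhl (603 ± 64.1) and P4ha1 (540 ± 31.9) overlapped. Lengths are those of all GENCODE M21 exons of a gene and may differ from the annotation the authors used.

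Hypoxia targets outside glycolysis moved in both directions. Of 48 such genes tested besides the members, 27 were higher, 13 lower and 8 did not pass, beside 32.8% higher and 33.1% lower among all genes. Their median log2 change was 0.79 (0.52 with equal totals), beside −0.03 for all genes. With equal totals 22 were higher and 17 lower. Some of the calls rest on few reads, and with a mean of at least 10 the counts were 24 higher and 13 lower of 42 tested. The lists overlap: Slc16a3, which was lower, is also on that of glycolytic targets. P4ha2, Plod1 and Plod2 are also on that of collagen hydroxylases. The chemokine receptor gene Cxcr4 rose 30.9-fold and the nuclear receptor gene Rora 13.1-fold, and Mxi1, which encodes an antagonist of MYC, rose 7.75-fold from 318 ± 15.5 to 2463 ± 219. Gys1, the glycogen synthase gene, fell 10.3-fold from 1001 ± 26.4 to 97.4 ± 16.9, the lysyl oxidase-like gene Loxl2 fell 8.91-fold from 659 ± 59.7 to 74 ± 23.1, and the carbonic anhydrase gene Car12 fell 4.21-fold from 271 ± 38.

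Glycolytic targets were divided almost evenly with the deposited scaling: 9 of 21 were higher, 10 lower and 2 did not pass, with a median log2 change of −0.14. Among all genes, 32.8% were higher and 33.1% lower. With equal totals 4 were higher and 13 lower, and the median was −0.48, while it was 0.11 after correction for GC content and length. Hk2, an inducible hexokinase gene, rose 2.42-fold from 844 ± 35.9, Pgam1 1.87-fold from 748 ± 52.4 and the glucose transporter gene Slc2a1 1.83-fold from 2082 ± 67. Eno2 fell 5.48-fold from 585 ± 32.3, the second glucose transporter gene Slc2a3 fell 3.87-fold from 1655 ± 17.9, and Tpi1 fell 1.9-fold from 6420 ± 93.5. Several glycolytic genes are known to have near-identical copies elsewhere in the genome, so their counts are uncertain.

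**Figure D5:**
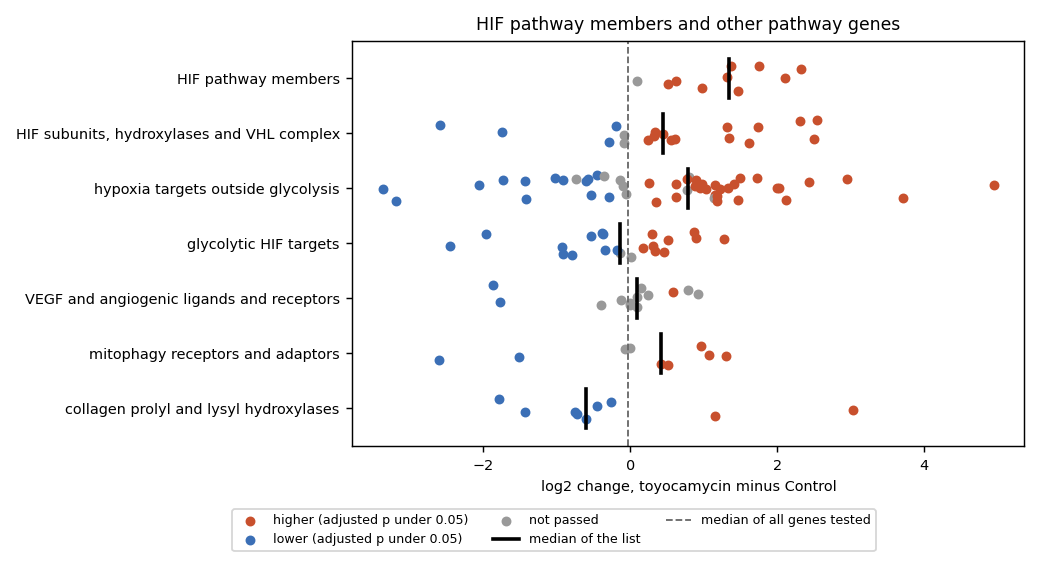
Log2 change (toyocamycin minus Control, x axis) of the 10 members and of the other tested genes of 6 lists, with each point a gene (higher, lower or not passed at an adjusted p of 0.05), the black bar the median of a list and the dashed line the median of all genes. The medians run from −0.61 for collagen hydroxylases to 1.34 for the members.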

How the data were processed

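RNA sequencing of 6 samples (3 Control, 3 toyocamycin) was analysed from a table of all genes. The reads were trimmed with cutadapt 4.7, FastQC was run and build mm10 was used, per the submitters' processing notes. The sources used here name no aligner, counting program, strand setting or annotation. Although its name says FPKM, the deposited table holds a normalised signal: with a tolerance of 0.01 reads, 100% of the values in each column are whole multiples of 1 step that is the same for every gene. They were read as reads per gene divided by a size factor per sample (0.757 to 1.18). No replicates were duplicates of each other (chi-square divided by its degrees of freedom, 3.87 to 7.4 within groups).

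Values were tested as log2(value + 1) in genes whose mean was 1 or more, with limma 3.58.1 (mean-variance trend, R 4.3.3), 2-sided, and p-values were adjusted by Benjamini-Hochberg across the 16223 genes. Log2 changes are on this scale, which understates changes of low genes, and folds are ratios of group means. No set test was run. Alternatives include edgeR 4.0.16 and DESeq2 1.42.0 on recovered reads, and a correction for GC content and exon length that was chosen after seeing the data. The limma test was checked on simulated data. Gene models come from GENCODE M21 (GRCm38, the same assembly as mm10), and near-identical transcripts were sought with megablast 2.17.0 (at least 90% identity over 100 bases).

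The members and lists were chosen with earlier results of these data known. Named genes are all members, the other HIF subunits, hydroxylases and VHL complex genes fixed by name, and up to 3 called genes with the highest and 3 with the lowest log2 change of each other list.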

Additional observations from a re-analysis of the deposited data

How the results depend on the processing

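Of 160 log2 changes of single members under 16 alternatives, 156 kept their direction and side of the threshold. The exceptions were Vegfa with equal totals (0.16) and Bnip3 with equal totals (−0.25), quantile normalization (−0.078) and correction for GC content and length (−0.022). The cause was not tested. With no filter, a mean of at least 10 or the replicate block, the log2 changes of members are by construction those of the main fit. Their direction could not change there, so the 160 comparisons are not all separate checks. With equal totals, 1 member was lower, HIF subunits, hydroxylases and VHL complex genes had 7 lower, glycolytic targets 4 higher, and mitophagy genes 3 higher and 4 lower. With quantile normalization, VEGF genes had 2 higher, mitophagy genes 4 lower and collagen hydroxylases 4 lower; collagen hydroxylases had 3 lower after the GC and length correction. They had 1 higher with edgeR and with a mean of at least 10, where P3h2 was not tested. With 1 sample left out, VEGF genes had 1 to 2 higher, the members 9 higher, and all genes 5042 to 5242 higher and 4996 to 5269 lower. The exact test of a ratio with 1 sample left out was not run, and the log2 ratio kept its sign in each case. edgeR called 4980 genes higher and 5329 lower among 12949 tested. Replicate numbers did not pair the samples (correlations of same-numbered deviations −0.02, 0.06 and −0.12); with the replicate block 9 members were higher and all genes had 5272 higher and 5298 lower. Ankrd37 rests on 32 to 133 reads per library.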

Other observations

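Several regulators of the HIF pathway outside the named members had high changes and were chosen here after their values were seen. Siah1a and Siah2, which encode ubiquitin ligases that act on EGLN hydroxylases, rose 5.8-fold from 229 ± 34 to 1326 ± 95.3 and 4.93-fold from 500 ± 87.5 to 2466 ± 25.8 normalised reads (n = 3). The coactivator gene Crebbp rose 5.68-fold from 2224 ± 134 to 12623 ± 590. Its paralog Ep300 rose 1.36-fold from 7247 ± 662 to 9821 ± 335, but did not pass with equal totals (log2 change 0.09) or quantile normalization (−0.05). Cited2, which encodes a protein that competes with HIF1A for these coactivators, rose 3.33-fold from 811 ± 81 to 2698 ± 117. Arnt2, a paralog of Arnt, fell 5.99-fold from 1488 ± 45.8. The 4 genes of JmjC demethylases and hydroxylases in the list of hypoxia targets rose: Kdm3a 1.93-fold, Kdm4b 2.04-fold, Kdm4c 2.77-fold and Jmjd6 1.54-fold. These 4 are among the 27 of 48 tested genes of that list that were called higher, beside 32.8% of all genes. Each gene with a fold change given in this paragraph passed an adjusted p of 0.05 in limma.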
